A study of Mus musculus with 24 samples.

Results

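The antioxidant, glutathione and NRF2 genes described here are 50 mouse genes taken from a list of symbols and matched to the gene names in the deposited tables. Of the 50, 46 were measured at 16 h among 10393 genes and 44 at 72 h among 7723 genes, and 43 were measured at both times. Slc7a11, Cbr3 and Osgin1 were not analysed here, nor were Gm3776 at 16 h and Gpx7, Cbr1 and G6pdx at 72 h. Every measured member passed the filter on low counts, so 46 and 44 members entered the tests. The members hold 2 regulators, 5 genes of glutathione synthesis and reduction, 13 glutathione transferases, 10 genes of the thioredoxin system, 4 glutathione peroxidases, 4 dismutase and catalase genes, 8 quinone, carbonyl and related enzymes and 4 genes of the pentose phosphate pathway. From textbook knowledge 23 of them were classed as targets of NRF2, 5 as mitochondrial enzymes and 2 as extracellular enzymes. Members and classes were chosen with earlier results of these data known, so the classes are not independent of the values below.

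The study asked how doxorubicin, an anthracycline chemotherapy drug that injures the heart, changes heart RNA, and whether hesperitin changes that response. Hesperitin, usually spelled hesperetin, is a flavanone of citrus fruit. All mice were labelled wild type (WT), with no age in the labels used here. The vehicle group (V) received neither compound, the H group received hesperitin at 10 mg/kg per day, the DOX group received doxorubicin at 25 mg/kg, and the DOXH group received both. Hearts were taken at 16 h (V, H, DOX and DOXH) or 72 h (V and DOX here), with 3 samples in each group and 18 in all. The labels do not tie samples to animals, and the p-values below therefore reflect only how far these samples spread, which may in part be technical.

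NRF2, encoded by Nfe2l2, is a transcription factor that KEAP1 holds in the cytoplasm and hands to the ubiquitin machinery. When oxidants or electrophiles modify KEAP1, NRF2 is spared, enters the nucleus, pairs with a small MAF protein and binds the antioxidant response element of its target genes. These targets make glutathione, recycle thioredoxin, detoxify quinones and supply NADPH. Doxorubicin is itself a quinone that can pass electrons to oxygen, and heart muscle, rich in mitochondria, relies on superoxide dismutases, peroxiredoxins and glutathione peroxidases to clear the products.

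The libraries held 9255651 to 20587578 counts, and the H libraries (17664060 to 19869050) were deeper than the others at 16 h (9255651 to 11074450). Levels are given as CPM, each count relative to its library's total after TMM scaling, a normalization between the libraries of a table; a level at 16 h is not comparable with one at 72 h. The 12 cardiomyocyte markers were all measured, and their summed level was 64035 to 72461 CPM in V and 37529 to 40162 CPM in DOX at 16 h, and 55116 to 62149 CPM in V and 23005 to 28004 CPM in DOX at 72 h. At 16 h the summed neutrophil markers (5 of 6 measured) already ranged from 21.9 to 67.9 CPM in V and from 132 to 241 CPM in DOX, and the mural markers (8 of 8) from 1247 to 1255 CPM and from 1072 to 1127 CPM. At 72 h the summed erythroid markers (6 of 11 measured) ranged from 1457 to 3552 CPM in V and from 33.5 to 46.4 CPM in DOX, and the summed neutrophil markers (3 of 6) from 0.957 to 1.98 CPM and from 26.4 to 133 CPM. Macrophage markers (9 of 10) summed to 264 to 341 CPM in V and 411 to 525 CPM in DOX at 72 h, fibroblast markers (8 of 9) to 1213 to 1619.85 CPM and 1682 to 2552 CPM, and endothelial markers (9 of 9) to 740.0 to 763 CPM and 865 to 1035 CPM. The mural markers were lower in DOX at 72 h, with 976 to 1011 CPM in V and 775 to 872 CPM in DOX, and of 7 lymphocyte markers 0 were measured. In whole hearts, fewer cells of a type and less RNA per cell cannot be told apart, and the part of these shifts in the results below was not tested. The 3 DOXH libraries stood apart from each other, which is described with the hesperitin comparisons.

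The promoter windows of 8 members are shown because the results turn on these genes: Gclm, Txnrd1, Pir, Aox1 and Ephx1, the NRF2 targets that rose more than 2-fold at 16 h, Srxn1, an NRF2 target that rose at 72 h, Gpx3, the extracellular enzyme that rose at both times, and Sod2, the mitochondrial enzyme that fell at both. Each window runs from 250 bases before to 50 bases after a transcription start in RefSeq on GRCm38.p6, 5′ to 3′ on the gene's strand. Capitals mark TGACNNNGC, the core letters of an antioxidant response element, on either strand. The windows are chr3:122245307-122245606 (plus strand), chr10:82858956-82859255 (plus), chrX:164269181-164269480 (plus), chr1:58029719-58030018 (plus), chr1:181017520-181017819 (minus), chr2:152105274-152105573 (plus), chr11:54902604-54902903 (plus) and chr17:13007589-13007888 (plus).
Gclm: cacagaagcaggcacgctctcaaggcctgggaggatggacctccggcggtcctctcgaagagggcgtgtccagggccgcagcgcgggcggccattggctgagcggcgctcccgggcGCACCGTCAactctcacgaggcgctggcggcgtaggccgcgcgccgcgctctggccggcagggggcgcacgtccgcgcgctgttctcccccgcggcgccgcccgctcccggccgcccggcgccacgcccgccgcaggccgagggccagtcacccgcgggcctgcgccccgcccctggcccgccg
Txnrd1: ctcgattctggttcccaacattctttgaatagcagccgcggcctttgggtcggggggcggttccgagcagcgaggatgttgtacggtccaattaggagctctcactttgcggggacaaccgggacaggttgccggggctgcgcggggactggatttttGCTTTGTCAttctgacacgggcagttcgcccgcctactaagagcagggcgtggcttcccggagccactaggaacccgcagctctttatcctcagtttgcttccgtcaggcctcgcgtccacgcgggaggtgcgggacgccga
Pir: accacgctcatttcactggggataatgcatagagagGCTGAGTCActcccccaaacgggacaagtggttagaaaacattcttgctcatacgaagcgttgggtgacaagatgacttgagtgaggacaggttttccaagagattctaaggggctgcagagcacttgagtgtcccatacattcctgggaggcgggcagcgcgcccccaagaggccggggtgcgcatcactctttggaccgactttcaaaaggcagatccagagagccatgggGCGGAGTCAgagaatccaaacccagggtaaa
Aox1: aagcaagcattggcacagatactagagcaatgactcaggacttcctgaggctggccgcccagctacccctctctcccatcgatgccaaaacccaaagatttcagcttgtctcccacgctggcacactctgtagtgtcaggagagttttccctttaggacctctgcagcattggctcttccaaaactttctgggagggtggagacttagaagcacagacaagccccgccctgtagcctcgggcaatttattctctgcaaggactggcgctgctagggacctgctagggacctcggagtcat
Ephx1: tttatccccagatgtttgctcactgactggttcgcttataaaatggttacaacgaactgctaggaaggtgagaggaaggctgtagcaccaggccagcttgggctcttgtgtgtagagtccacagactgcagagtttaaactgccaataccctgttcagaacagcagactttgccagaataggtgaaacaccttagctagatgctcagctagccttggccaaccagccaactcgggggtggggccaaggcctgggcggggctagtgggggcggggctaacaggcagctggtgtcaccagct
Srxn1: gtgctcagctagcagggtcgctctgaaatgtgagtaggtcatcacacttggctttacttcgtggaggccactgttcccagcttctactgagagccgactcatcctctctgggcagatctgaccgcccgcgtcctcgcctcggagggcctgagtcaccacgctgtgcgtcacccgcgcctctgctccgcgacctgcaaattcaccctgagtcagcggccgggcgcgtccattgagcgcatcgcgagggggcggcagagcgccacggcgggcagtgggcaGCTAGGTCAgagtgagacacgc
Gpx3: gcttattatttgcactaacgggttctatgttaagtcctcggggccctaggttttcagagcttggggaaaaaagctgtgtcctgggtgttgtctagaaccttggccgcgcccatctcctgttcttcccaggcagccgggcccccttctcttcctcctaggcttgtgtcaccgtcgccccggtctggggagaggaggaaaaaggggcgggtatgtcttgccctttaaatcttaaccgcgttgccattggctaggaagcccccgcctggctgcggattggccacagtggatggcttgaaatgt
Sod2: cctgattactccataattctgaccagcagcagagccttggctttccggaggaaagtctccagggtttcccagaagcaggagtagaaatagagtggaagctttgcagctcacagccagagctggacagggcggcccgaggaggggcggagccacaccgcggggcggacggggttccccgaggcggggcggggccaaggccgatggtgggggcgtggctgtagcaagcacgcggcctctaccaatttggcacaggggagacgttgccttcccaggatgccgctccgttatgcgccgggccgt

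The match in Gclm, which encodes the modifier subunit of glutamate-cysteine ligase, begins 134 bases before the start. That in Txnrd1, the cytosolic thioredoxin reductase, begins 92 bases before the start of 1 of its 3 windows. Pir, which encodes pirin, holds 2 matches, and Srxn1, the sulfiredoxin that restores overoxidised peroxiredoxins, holds 1 inside the first 50 transcribed bases. The windows of Aox1, aldehyde oxidase, Ephx1, the microsomal epoxide hydrolase, Gpx3 and Sod2 hold none of these letters, nor do those of the NRF2 targets Nqo1, Txn1 and Tkt. Across the members with a window in the RefSeq table, 12 of 45 (26.7%) held the motif, against 3781 of 27025 genes (14%) in the whole table. Among NRF2 targets 8 of 20 (40.0%) held it, namely G6pdx, Gclm, Gsta3, Pgd, Pir, Prdx1, Srxn1 and Txnrd1, and among other members 4 of 25 (16.0%), namely Gstm5, Mgst1, Nfe2l2 and Sod1. The same letters followed by an A were found in Gsta3, Pgd and Txnrd1, 3 of 45 members (6.67%) against 932 of 27025 genes (3.45%). A match describes letters in this window only, and the longer motif overlaps the shorter. Gclc, Gsr, Gsta4, Prdx6 and Sod3 had no window.

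In vehicle hearts the members spanned a wide range of levels. Scaled by the length of the principal annotated transcript, the highest mean levels at 16 h belonged to Gpx4, the peroxidase of membrane lipid peroxides (383 ± 10.8 CPM per kb, SD, n = 3), Sod1, the copper-zinc superoxide dismutase of the cytosol (262 ± 5.90), and Prdx5, a mitochondrial peroxiredoxin (181 ± 2.07). Mgst3, a microsomal transferase, followed at 171 ± 4.81 CPM per kb, then Prdx3 at 147 ± 3.01, Prdx2 at 139 ± 2.72 and Gstm1 at 129 ± 7.38. Several NRF2 targets that are described below were among the lower ones: Txnrd1 stood at 10.9 ± 0.694 CPM per kb, Srxn1 at 5.5 ± 0.795, Gclm at 3.24 ± 0.147 and Pir at 2.30 ± 0.285. The lowest was G6pdx at 2.16 ± 0.252 CPM per kb, which did not differ from Pir beyond their spread. Reads of some members could be assigned to near-identical genes. Of the 50-base windows of their transcripts, Gsta1 shared 89.7% and Gm3776 92.5% with other genes, mainly each other, Gstp1 62.3% with Gstp2 and others, and Gpx4 61.7% with a pseudogene.

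At 16 h after doxorubicin 11 of 20 NRF2 targets rose, among them Txnrd1, Gclm, Aox1 and Ephx1, each more than 2-fold. None of the 5 mitochondrial enzymes did, but 5 genes are too few to tell this from the 15.6% of all genes that rose. The difference between these classes was described by counts and not tested. In edgeR's quasi-likelihood test with Benjamini-Hochberg adjustment over all 10393 genes, 14 of 46 members (30.4%) rose against V and 5 (10.9%) fell, where 15.6% of all genes rose and 16.6% fell (32.3% either way). The median log2 fold change of the members was 0.21, and that of all genes 0.02. The 11 NRF2 targets that rose were 55.0% of those measured, with 0 lower and a median of 0.48. Nqo1 and Srxn1 were among the NRF2 targets that did not pass. A narrower planned class of 7 core targets is not given separately here. Of the 26 other members 3 rose and 5 fell, with a median of -0.05. Of the 5 mitochondrial enzymes 0 rose and 2 fell, with a median of -0.28, and of the 2 extracellular enzymes Gpx3 rose. Of the 2 mitochondrial falls, that of Prdx3 sat at the threshold and was lost when any V or DOX library was left out. All tests at 16 h share 1 estimate of each gene's spread over the 4 groups, so the H and DOXH libraries also shape the errors. In a fit of V and DOX alone 19 members rose and 9 fell, with Nfe2l2, Gstm1, Srxn1, Sod1 and Cat among the rises (adjusted p = 0.00535, 0.00964, 0.0112, 0.00908 and 0.0352) and Gpx4 among the falls (0.0264). The shares of all genes in that fit are not given here, so its counts cannot be set against the shares above. Members took 0.355 to 0.372% of all counts in the V libraries and 0.428 to 0.463% in the DOX libraries. The cardiomyocyte markers fell in 12 of 12 cases, with a median of -0.69, and their part in these values was not tested.

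**Figure D1:**
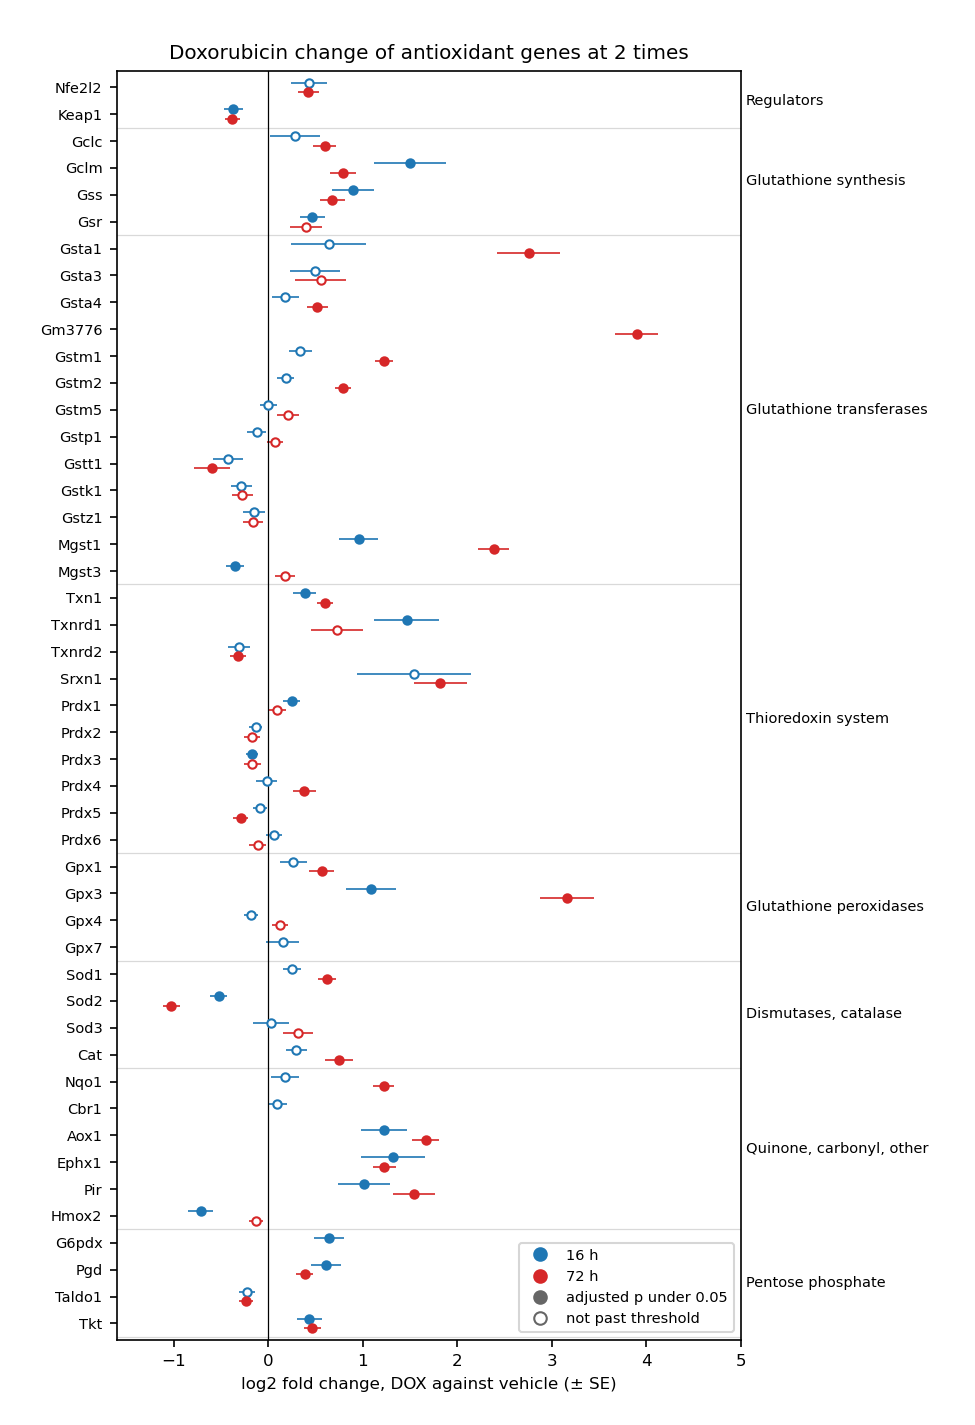
Log2 fold change of each measured member between DOX and V at 16 h (blue) and 72 h (red), with the standard error of the fit; filled points passed the adjusted threshold of 0.05, and members are ordered by role. At 16 h 14 filled points lie right of 0 and 5 left of it, and at 72 h 23 and 6.

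Among the regulators, Keap1 fell at 16 h and Nfe2l2 did not pass the threshold. Keap1, the adaptor that presents NRF2 for degradation, read 46.1, 43.2 and 43.8 CPM in V replicates 1, 2 and 3 and 35.2, 33.4 and 34.5 CPM in DOX, which is -0.37 ± 0.10 on the log2 scale (± SE, as in each value of this form; edgeR adjusted p = 0.0182). Nfe2l2 read 83.5, 88.1 and 74.0 CPM in V and 119, 114 and 98.9 in DOX (0.43 ± 0.19, adjusted p = 0.0995). Neither gene's DOX libraries overlapped its V libraries. The Nfe2l2 difference passed when only V and DOX entered the fit (adjusted p = 0.00535), and the Keap1 call was lost without DOX replicate 2 (0.0546) or V replicate 1 (0.0652).

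Glutathione synthesis was represented by 4 measured genes, of which 3 rose. Gclm read 19.0, 17.95 and 17.4 CPM in V and 65.9, 50.4 and 37.5 CPM in DOX. All 3 DOX libraries lay above all V libraries, and replicate 1 was the highest. The change was 2.83-fold (log2 1.5 ± 0.39, edgeR adjusted p = 0.0148), and it missed the threshold without DOX replicate 1 (log2 1.28, adjusted p = 0.0518). The catalytic partner Gclc read 12.6, 16.2 and 13.8 CPM in V and 20.4, 14.5 and 17.1 in DOX, with overlap between the groups (0.28 ± 0.26, adjusted p = 0.423). Gss, glutathione synthetase, the second step, rose by 0.90 ± 0.22 on the log2 scale (adjusted p = 0.0128). Gsr, the reductase that regenerates glutathione with NADPH, read 17.3, 16.8 and 19.5 CPM in V and 27.2, 23.5 and 23.2 in DOX, without overlap (0.46 ± 0.13, adjusted p = 0.0207). The Gsr call was lost without DOX replicate 1 (0.0777), V replicate 1 (0.0693) or V replicate 2 (0.0701).

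Of the 12 glutathione transferases measured at 16 h, enzymes that conjugate glutathione to electrophiles, 1 rose and 1 fell. Over all genes 15.6% rose and 16.6% fell, and 12 genes are too few to tell from these shares. Mgst1, a membrane-bound transferase, read 29.0, 32.2 and 33.1 CPM in V and 70.9, 49.5 and 62.7 CPM in DOX, with every DOX library above every V library (1.94-fold, log2 0.96 ± 0.20, edgeR adjusted p = 0.00707). Its relative Mgst3 fell: it ranged from 183 to 193 CPM in V and from 129 to 167 CPM in DOX (-0.35 ± 0.09, adjusted p = 0.0157). Gsta1 had few counts and spread widely, with 1.45, 3.26 and 4.61 CPM in V and 6.75, 2.37 and 5.34 CPM in DOX (0.64 ± 0.40, adjusted p = 0.229). Gstm1 read 168, 156 and 175 CPM in V and 234, 206 and 191 in DOX, without overlap and just short of the threshold (0.34 ± 0.12, adjusted p = 0.0556). The other 8 uncalled transferases had log2 changes between -0.43 (Gstt1) and 0.49 (Gsta3).

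In the thioredoxin system 3 of 10 genes rose and 1 fell at 16 h. Txnrd1, the selenoenzyme that reduces thioredoxin in the cytosol, read 41.5, 37.0 and 37.5 CPM in V and 133, 99.6 and 86.9 CPM in DOX. The lowest DOX library was above the highest V library, a change of 2.76-fold (log2 1.46 ± 0.34, edgeR adjusted p = 0.0102). Srxn1 had the largest fitted change of any member at this time, but its DOX libraries differed: V read 16.1, 17.3 and 12.98 CPM and DOX 66.8, 34.9 and 33.6 CPM. The groups did not overlap, yet the test across all groups did not pass (1.54 ± 0.61, adjusted p = 0.0731). In a fit of V and DOX alone it did (0.0112). Txn1, thioredoxin itself, rose by 0.38 ± 0.12 (adjusted p = 0.0296) and Prdx1 by 0.25 ± 0.09 (adjusted p = 0.0479). The mitochondrial members of the same system went no higher: Txnrd2 read 22.7, 19.7 and 24.6 CPM in V and 17.0, 20.8 and 16.3 in DOX, with overlap (-0.31 ± 0.12, adjusted p = 0.0611). Prdx3, the peroxiredoxin of the mitochondrial matrix, read 219, 221 and 213 CPM in V and 194, 200.3 and 185 in DOX, without overlap (-0.17 ± 0.06, adjusted p = 0.0499). That value sits at the threshold, and the call was lost when any 1 of the 6 libraries compared was left out (adjusted p from 0.0686 to 0.160). The other 4 peroxiredoxins had log2 changes between -0.13 (Prdx2) and 0.06 (Prdx6).

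Of the glutathione peroxidases only Gpx3, the selenoenzyme secreted into plasma, passed at 16 h. It read 127, 142 and 120.1 CPM in V and 359, 184 and 282 CPM in DOX, so that the DOX libraries spread widely but all lay above V (2.12-fold, log2 1.08 ± 0.26, edgeR adjusted p = 0.0119). Gpx1, the abundant cytosolic form, read 29.8, 35.4 and 33.3 CPM in V and 46.4, 32.6 and 39.3 in DOX, with overlap (0.27 ± 0.14, adjusted p = 0.166). Gpx4 read 356, 374 and 373 CPM in V and 331, 327 and 314 in DOX, lower in every DOX library but short of the threshold (-0.18 ± 0.08, adjusted p = 0.0929). Gpx7, of the endoplasmic reticulum, had a change of 0.15 ± 0.17 (adjusted p = 0.542).

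Of the 3 superoxide dismutases Sod2 passed at 16 h. Sod2, the manganese enzyme of the mitochondrial matrix, read 559, 536 and 596 CPM in V and 405, 395 and 376 CPM in DOX, a narrow and complete separation (1.44-fold lower, log2 -0.52 ± 0.09, edgeR adjusted p = 0.00349). The cytosolic Sod1 read 171, 164 and 169 CPM in V and 209, 202 and 189 CPM in DOX, higher in every DOX library but short of the threshold (0.25 ± 0.10, adjusted p = 0.0634). The extracellular Sod3 read 25.0, 25.7 and 27.0 CPM in V and 32.1, 20.0 and 27.4 in DOX, with overlap (0.03 ± 0.19, adjusted p = 0.908). Catalase, which decomposes hydrogen peroxide in peroxisomes, read 193, 179.9 and 223 CPM in V and 269, 244 and 218 in DOX, also with overlap (0.30 ± 0.11, adjusted p = 0.0586).

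Among the quinone, carbonyl and related enzymes, 3 of 6 measured rose at 16 h and 1 fell. Aox1, aldehyde oxidase, read 27.1, 31.8 and 30.3 CPM in V and 72.5, 71.1 and 65.3 CPM in DOX, a tight pair of groups with no overlap (2.34-fold, log2 1.23 ± 0.24, edgeR adjusted p = 0.00552). Ephx1, the microsomal epoxide hydrolase, read 29.3, 34.3 and 32.0 CPM in V and 70.3, 75.5 and 93.1 CPM in DOX (1.32 ± 0.34, adjusted p = 0.0152). Pir was low, with 3.18, 4.08 and 3.77 CPM in V and 7.11, 6.92 and 8.30 CPM in DOX (1.02 ± 0.27, adjusted p = 0.0168). Both groups of 3 were separate for Ephx1 and Pir. Without V replicate 1 their calls were lost (Ephx1 0.0543, Pir 0.0650), and that of Pir also without DOX replicate 3 (0.0526). Nqo1, the quinone reductase often used as an index of NRF2 activity, did not pass: it read 42.3, 46.7 and 44.2 CPM in V and 51.2, 43.3 and 55.7 CPM in DOX, with overlap (0.17 ± 0.15, adjusted p = 0.376). Cbr1, a carbonyl reductase that reduces doxorubicin to doxorubicinol, read 14.9, 15.4 and 16.5 CPM in V and 18.5, 15.6 and 16.0 in DOX (0.10 ± 0.10, adjusted p = 0.466). Hmox2, the constitutive haem oxygenase, fell: it ranged from 41.1 to 43.6 CPM in V and from 25.5 to 26.6 CPM in DOX (-0.71 ± 0.13, adjusted p = 0.00394).

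The pentose phosphate pathway, a source of the NADPH that both reductases use, had 3 of 4 measured members higher at 16 h. G6pdx, glucose-6-phosphate dehydrogenase, read 5.11, 6.44 and 5.65 CPM in V and 9.85, 8.501 and 8.54 CPM in DOX, without overlap (0.64 ± 0.16, edgeR adjusted p = 0.0111). Pgd, the next dehydrogenase, rose by 0.61 ± 0.16 (adjusted p = 0.0146) and Tkt, transketolase, by 0.43 ± 0.13 (adjusted p = 0.0266). Taldo1, transaldolase, had a log2 change of -0.23 ± 0.08 (adjusted p = 0.0581).

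The 14 rises did not rest equally on the DOX libraries. In all 14 the lowest DOX library was above the highest V library, and DOX replicate 1 was the highest of the group in 9 of them and replicate 2 the lowest in 8. The 14 were picked by the test on these same libraries, so the separation adds no support. Its share among all genes was not computed. Leaving out DOX replicate 1 left 9 members higher and 3 lower, and leaving out V replicate 1 left 7 higher and 3 lower. Calls over all genes dropped as well, from 3352 to between 1928 and 2409 in the 6 fits with 1 library left out. The loss is therefore not particular to the members.

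At 72 h Gpx3, Gm3776, Gsta1 and Mgst1 were more than 5-fold higher in DOX than in V, Nqo1 and Gstm1 more than 2-fold, and Sod2 was more than 2-fold lower. In edgeR's test over 7703 genes 23 of 44 members (52.3%) rose in DOX against V and 6 (13.6%) fell, where 26.5% of all genes rose and 27.2% fell (53.7% either way). The median log2 fold change was 0.45, and that of all genes 0.01. Of 18 NRF2 targets 13 rose (72.2%) and 1, Taldo1, fell, with a median of 0.66. Of 26 other members 10 rose (38.5%) and 5 fell, with a median of 0.15. None of the 5 mitochondrial enzymes rose and 3 fell (Sod2, Txnrd2 and Prdx5), with a median of -0.29, and of the 2 extracellular enzymes Gpx3 again rose. Again 5 genes are too few to tell 0 higher from the 26.5% of all genes. Members took 0.299 to 0.312% of all counts in V and 0.567 to 0.643% in DOX. The share of mitochondrially encoded transcripts was 35.4 to 37.4% in V and 27.2 to 30.3% in DOX, and 11 of 12 cardiomyocyte markers fell, with a median of -1.19. Their part in these values was not tested.

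Gm3776 had the largest fitted rise and its neighbour Gsta1 the third, after Gpx3. Gm3776, an alpha-class transferase gene (GENCODE, GRCm38 chr9:78257129-78269166), read 1.11, 1.21 and 0.97 CPM in V replicates 1, 2 and 3. In DOX replicates 1, 2 and the library without a number, an order kept below, it read 19.7, 14.1 and 15.4 CPM (3.90 ± 0.23, edgeR adjusted p = 1.56e-05). Gsta1, its neighbour at chr9:78230656-78242684, read 2.04, 1.66 and 4.74 CPM in V and 21.8, 17.2 and 18.5 CPM in DOX (2.75 ± 0.34, adjusted p = 0.000431). Because most of the sequence is shared, the division of reads between them is uncertain. Their summed level does not depend on that division: it was 3.15, 2.87 and 5.71 CPM in V and 41.5, 31.2 and 33.9 CPM in DOX.

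Among the other transferases Mgst1 read 41.6, 45.6 and 43.4 CPM in V and 289, 187 and 205 CPM in DOX, 5.22-fold higher (2.38 ± 0.16, edgeR adjusted p = 3.02e-05). Gstm1 read 116, 128 and 136 CPM in V and 319, 271 and 295 CPM in DOX (1.22 ± 0.10, adjusted p = 3.24e-05). In both genes the groups were far apart, with DOX replicate 1 the highest. Gstm2 (0.79 ± 0.08) and Gsta4 (0.52 ± 0.11) also rose, and Gstt1 fell (-0.59 ± 0.19, adjusted p = 0.027). In all 6 of 13 transferases rose and 1 fell. The 6 that did not pass had changes between -0.27 (Gstk1, the mitochondrial kappa form) and 0.55 (Gsta3).

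**Figure D2:**
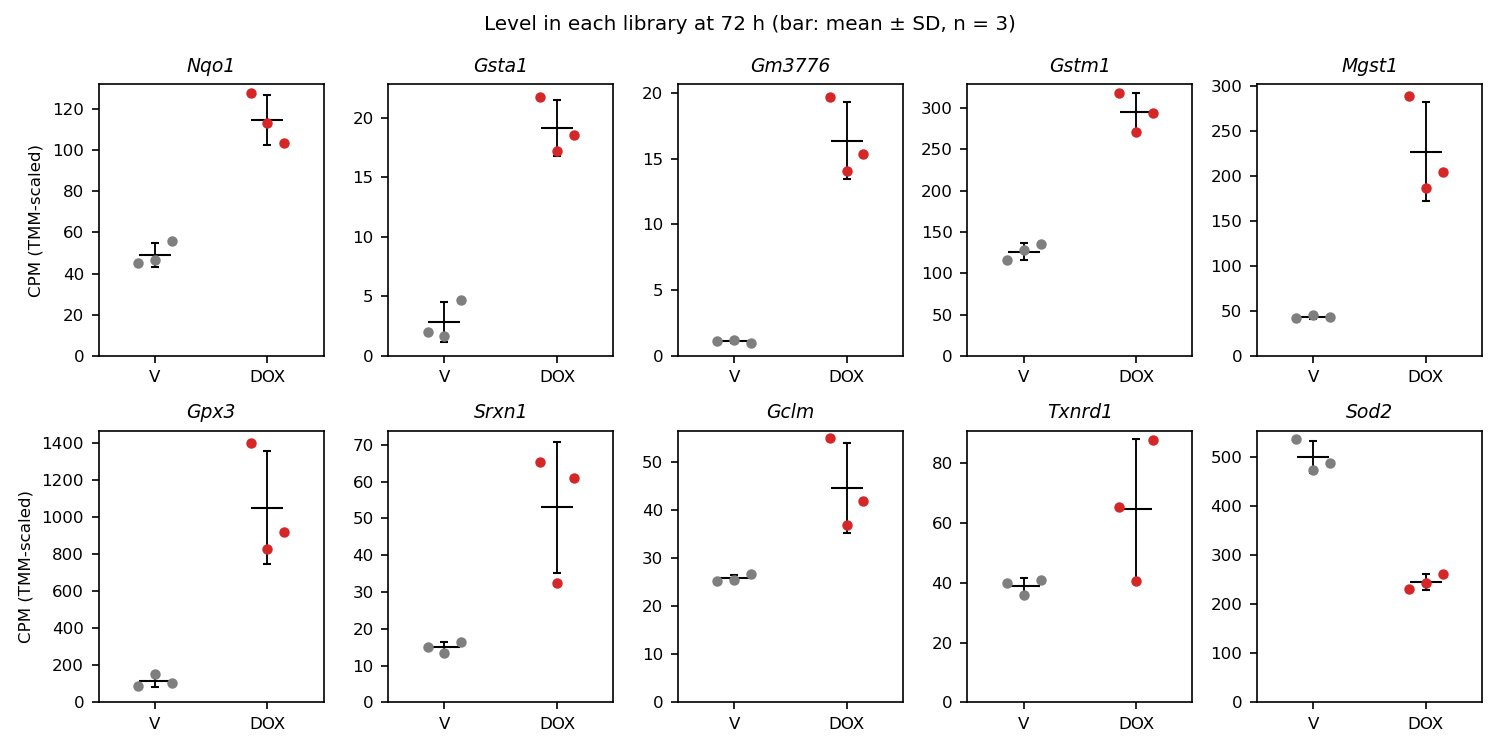
Level in CPM of 10 members in each V and DOX library at 72 h, with the mean ± SD of 3 libraries; axes start at 0. The groups do not overlap except in Txnrd1, where 1 DOX library (40.7 CPM) lies at the level of V, and Sod2 is the 1 gene shown whose DOX libraries lie lower.

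Gpx3 (chr11:54902453-54910377) had the second largest log2 change at 72 h, after Gm3776. It read 91.0, 155 and 106 CPM in V and 1400.2, 831 and 922 CPM in DOX, 8.95-fold higher (3.16 ± 0.29, edgeR adjusted p = 0.000213). With the replicate number as a block, which leaves 4 libraries, the change was 3.18 and missed the threshold (adjusted p = 0.0959). Gpx1 rose more modestly, from 30.3, 41.0 and 44.9 CPM to 58.0, 59.9 and 53.9 CPM (0.56 ± 0.13, adjusted p = 0.00698). Gpx4, an essential inhibitor of ferroptosis, read 366, 417 and 420.3 CPM in V and 423, 452 and 434 in DOX, with the lowest DOX library above the highest V library by little (0.12 ± 0.09, adjusted p = 0.263).

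At 72 h Sod2 fell and Sod1 rose. Sod2 (chr17:13006846-13040063) read 538, 475 and 489 CPM in V and 232, 243 and 263 CPM in DOX, 2.04-fold lower (-1.03 ± 0.09, edgeR adjusted p = 4.37e-05). Sod1 read 145, 156 and 176 CPM in V and 241, 252 and 241 CPM in DOX (0.62 ± 0.09, adjusted p = 0.000514). Neither gene's groups overlapped. Sod3 read 10.6, 15.3 and 14.2 CPM in V and 14.5, 19.2 and 16.2 in DOX, with overlap (0.32 ± 0.16, adjusted p = 0.117). Catalase rose from 170.0, 158 and 182 CPM to 342, 221 and 290.3 CPM (0.75 ± 0.15, adjusted p = 0.00303).

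Both regulators passed at 72 h, Nfe2l2 higher and Keap1 lower. Nfe2l2 read 41.3, 50.1 and 47.5 CPM in V and 70.9, 55.3 and 60.1 CPM in DOX (0.43 ± 0.11, edgeR adjusted p = 0.00985). Keap1 read 43.6, 43.9 and 39.4 CPM in V and 31.9, 33.4 and 32.0 CPM in DOX (-0.38 ± 0.08, adjusted p = 0.00272). The groups overlapped in neither. The Nfe2l2 call was lost with the replicate block (0.0592).

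In glutathione synthesis both subunits of the ligase now rose. Gclc read 11.3, 9.19 and 11.3 CPM in V and 17.8, 15.5 and 14.7 CPM in DOX (0.60 ± 0.12, edgeR adjusted p = 0.0033), and Gclm 25.3, 25.4 and 26.7 CPM in V and 54.9, 36.9 and 41.9 CPM in DOX (0.79 ± 0.14, adjusted p = 0.00154). Gss rose by 0.68 ± 0.13 (adjusted p = 0.0021). Gsr did not pass: it read 14.6, 12.6 and 14.9 CPM in V and 20.0, 13.8 and 21.9 CPM in DOX, and DOX replicate 2 lay within V (0.40 ± 0.17, adjusted p = 0.0712). Txnrd1, the partner enzyme of thioredoxin, showed the same low library, with 39.9, 36.1 and 41.0 CPM in V and 65.3, 40.7 and 87.9 CPM in DOX (0.73 ± 0.27, adjusted p = 0.065). Without DOX replicate 2 both passed (Gsr 0.57, adjusted p = 0.00171; Txnrd1 0.97, adjusted p = 0.000258). Srxn1 also had its lowest DOX value there, with 14.9, 13.5 and 16.6 CPM in V and 65.5, 32.5 and 61.0 CPM in DOX, and rose (3.53-fold, log2 1.82 ± 0.28, adjusted p = 0.0021). Txn1 (0.60 ± 0.09) and Prdx4, the peroxiredoxin of the endoplasmic reticulum (0.38 ± 0.12), rose as well. Txnrd2 fell from 21.8, 19.7 and 19.2 CPM to 16.1, 16.2 and 16.4 CPM (-0.32 ± 0.09, adjusted p = 0.012). Prdx5 fell by 1.22-fold (-0.29 ± 0.08, adjusted p = 0.0134), and Prdx3 read 207, 206 and 240.0 CPM in V and 189, 198 and 194 CPM in DOX (-0.17 ± 0.09, adjusted p = 0.132). Prdx1, Prdx2 and Prdx6 did not pass, with changes of 0.09, -0.17 and -0.11.

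Of the quinone, carbonyl and related enzymes 4 of 5 measured rose at 72 h. Nqo1 read 45.1, 46.7 and 55.9 CPM in V and 128, 113 and 104 CPM in DOX, 2.33-fold higher (1.22 ± 0.11, edgeR adjusted p = 5.1e-05). Aox1 read 35.4, 30.3 and 38.3 CPM in V and 132, 105 and 92.5 CPM in DOX (1.66 ± 0.14, adjusted p = 5.48e-05). Ephx1 read 31.2, 35.6 and 40.9 CPM in V and 78.1, 96.1 and 78.3 CPM in DOX (1.23 ± 0.12, adjusted p = 7.56e-05). All 3 had every DOX library above every V library, as did Pir, with 3.27, 3.89 and 4.74 CPM in V and 12.5, 11.8 and 10.3 CPM in DOX (1.54 ± 0.22, adjusted p = 0.000446). Hmox2 read 35.5 to 39.1 CPM in V and 33.7 to 34.6 CPM in DOX (-0.13 ± 0.07, adjusted p = 0.176). In the pentose phosphate pathway Pgd (0.38 ± 0.09) and Tkt (0.47 ± 0.09) rose and Taldo1 fell (-0.24 ± 0.07, adjusted p = 0.0219). The groups did not overlap in any of the 23 members that rose at 72 h. These members were picked by the test on the same libraries, so the separation adds no support. Its share among all genes was not computed. DOX replicate 1 was the highest of its group in 16 of the 23 and replicate 2 in the other 7.

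Among the 43 members tested at both times, 10 rose at both: Gclm, Gss, Mgst1, Txn1, Gpx3, Aox1, Ephx1, Pir, Pgd and Tkt. They are 76.9% of the 13 that rose at 16 h and 45.5% of the 22 that rose at 72 h. The same overlap was not computed over all genes, so these shares show nothing particular to the members. Keap1 and Sod2 fell at both, 0 members passed in opposite directions, and 9 passed at neither time. A call at 1 time alone does not show a difference between times, so the doxorubicin change at 72 h was tested against that at 16 h. In edgeR's test of this difference 8 of 43 members (18.6%) had a higher change at 72 h and 1 (2.33%) a lower one, where 12.6% of all genes were higher and 13.8% lower. Those with a higher change were Gsta1, Gpx3, Mgst1, Nqo1, Gstm1, Gstm2, Hmox2 and Mgst3, so 5 of the 12 transferases tested and 3 of the 18 NRF2 targets. Nqo1 differed by 1.04 ± 0.20 (adjusted p = 0.00195) and Gpx3 by 2.07 ± 0.40 (adjusted p = 0.00237). Sod2 was the member with the lower change (-0.51 ± 0.13, adjusted p = 0.00832). Gclm, Txnrd1 and Srxn1 did not differ between times past the threshold: Gclm -0.72 ± 0.47 (adjusted p = 0.277), Txnrd1 -0.74 ± 0.47 (0.259) and Srxn1 0.27 ± 0.75 (0.815). The Gsta1 difference is uncertain, since reads of Gm3776 could be assigned to either gene.

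**Figure D3:**
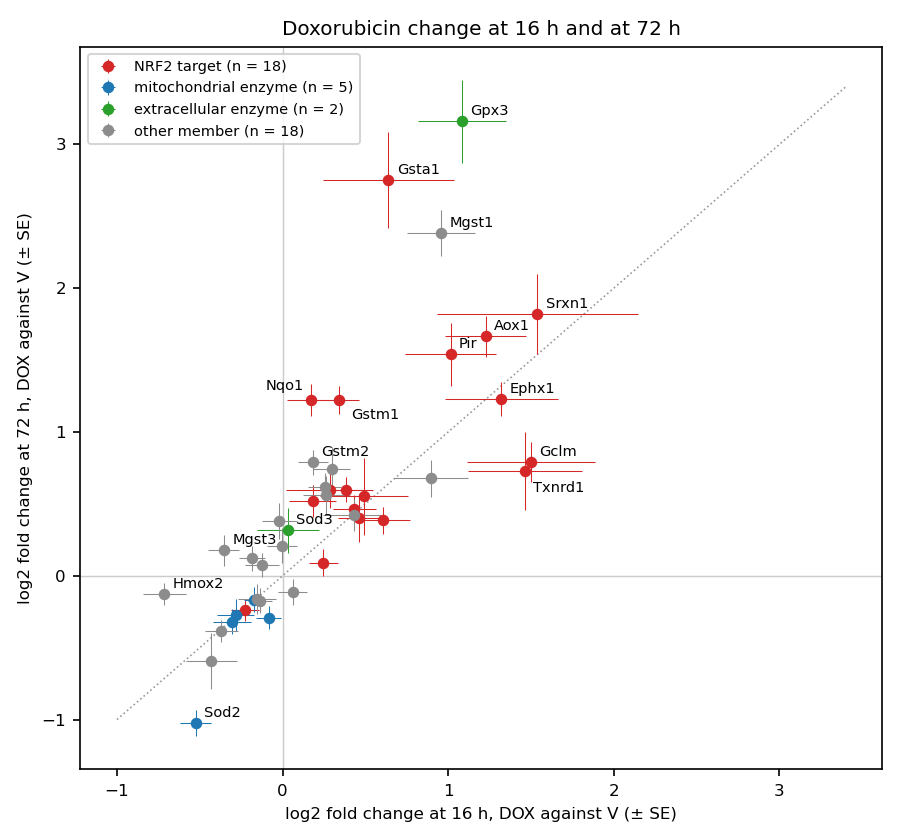
Log2 fold change of DOX against V at 16 h (horizontal axis) and 72 h (vertical axis) for the 43 members tested at both times, with standard errors; colours give the class and the dotted line marks equal change. Gpx3, Gsta1, Mgst1, Nqo1 and Gstm1 lie well above the line, Gclm and Txnrd1 below it, and the 5 mitochondrial enzymes have values under 0 on both axes.

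With hesperitin alone no member passed. In edgeR's test of H against V 0 of 46 members passed, as did 0 of 10393 genes (0%). At an unadjusted p under 0.05 there were 1 higher and 2 lower members, and DESeq2 and voom called 0 members. The unadjusted counts are given without the share of all genes and show nothing particular to the members. The median log2 change was 0.03. Nfe2l2 had the smallest p, with 69.8, 53.4 and 50.5 CPM in H against 74.0 to 88.1 CPM in V (-0.50 ± 0.19, unadjusted p = 0.0229, edgeR adjusted p = 0.758). Every H library of Nfe2l2 was below every V library, as it was for Mgst3. In Gss, Mgst1, Prdx1, Prdx4, Gstm5 and Gpx7 every H library was above every V library. Nfe2l2 was picked by its p, so its separation adds no support. The share among all genes was not computed. Nqo1 read 59.0, 45.1 and 51.7 CPM in H (0.23 ± 0.15, adjusted p = 0.859) and Txnrd1 45.5, 45.6 and 39.9 CPM (0.18 ± 0.34, adjusted p = 0.982). These errors use the spread of all 4 groups, including the wide DOXH libraries (40.6 to 128 CPM for Txnrd1), and not that of H and V alone. Sod2 read 530.2, 615 and 596 CPM, within and around the V range (0.04 ± 0.09, adjusted p = 0.984).

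**Figure D4:**
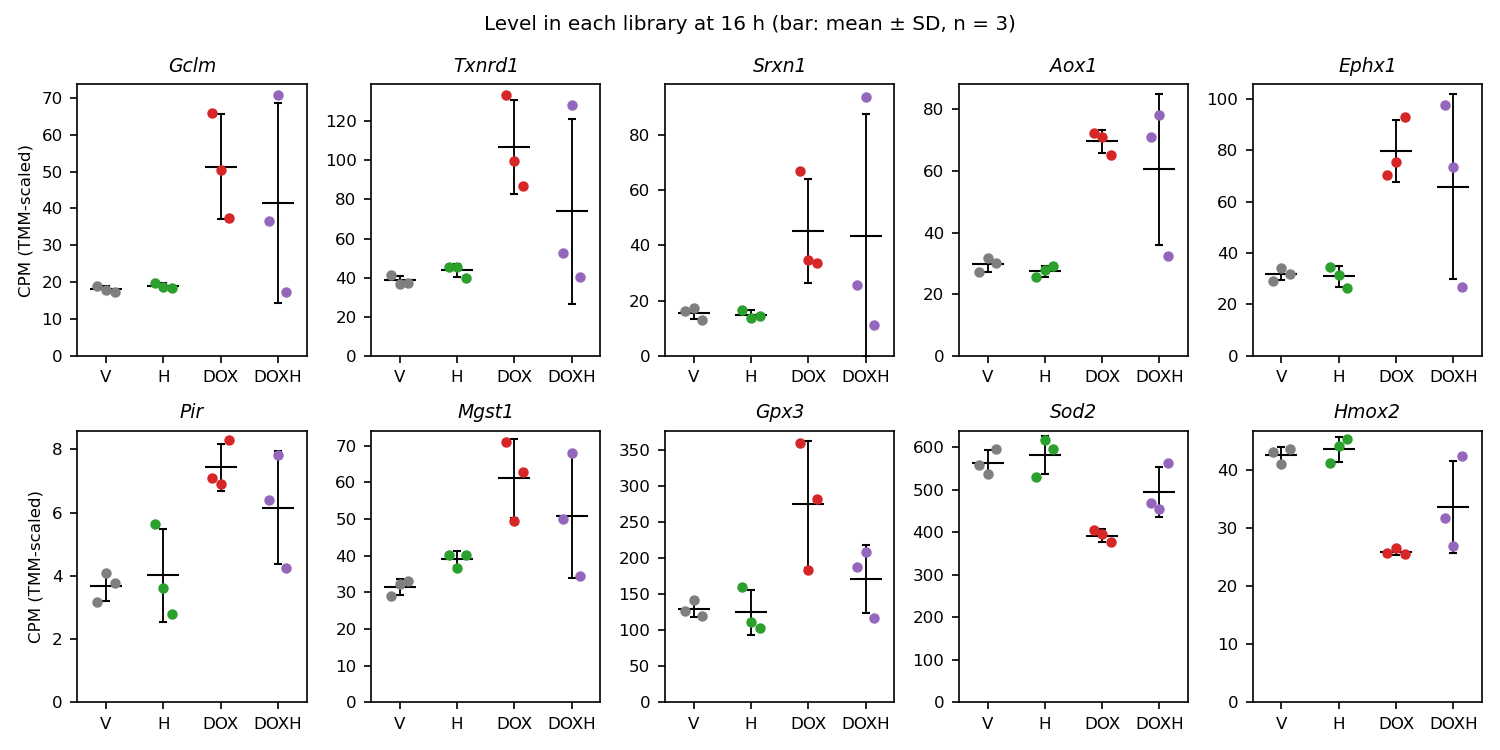
Level in CPM of 10 members in each library of the 4 groups at 16 h, with the mean ± SD of 3 libraries; axes start at 0. V and H overlap except in Mgst1, DOX lies apart from V in all 10, and the 3 DOXH libraries are spread out, most in Srxn1 (11.3 to 93.6 CPM).

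When hesperitin was added to doxorubicin no member passed, and the DOXH libraries differed from each other. In edgeR's test of DOXH against DOX 0 of 46 members and 0% of 10393 genes passed, and in the tests of DOXH against V and of the interaction of both compounds the counts were 0 and 0% as well. At an unadjusted p under 0.05 there were 9 members in DOXH against DOX (6 higher, 3 lower), 13 in DOXH against V (12 higher, 1 lower) and 5 in the interaction (4 higher, 1 lower). The shares of all genes at that threshold are not given here, so these counts show nothing particular to the members. DESeq2 called 1 member in DOXH against DOX, Sod2 (0.35, adjusted p = 0.0190), 1 in DOXH against V, Aox1 (1.03, adjusted p = 0.0112), and 0 in the interaction, and voom called 0 in all 3. DESeq2's counts of all genes are given in the last section, and 1 of 46 members shows nothing particular to the members.

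The spread of the DOXH libraries was visible in single genes. Gclm read 36.5, 70.8 and 17.2 CPM in DOXH replicates 1, 2 and 3, against 37.5 to 65.9 CPM in DOX and 17.4 to 19.0 CPM in V. Srxn1 read 25.8, 93.6 and 11.3 CPM, and Txnrd1 52.7, 128 and 40.6 CPM. In each of these genes replicate 2 was at or above most DOX libraries and replicate 3 was near or below V, with replicate 1 between. Aox1 read 71.1, 78.1 and 32.5 CPM, Ephx1 97.4, 73.4 and 26.7 CPM and Pir 6.41, 7.82 and 4.25 CPM. In these the first 2 libraries were near DOX and the third near V. Hmox2, which fell with doxorubicin, read 31.7, 27.0 and 42.4 CPM, and Sod2 468, 455 and 562 CPM against 376 to 405 CPM in DOX. All 3 DOXH libraries of Sod2 were above all 3 DOX libraries. The same held for Keap1, Prdx3, Hmox2 and Gstz1, while in G6pdx and Tkt all DOXH libraries were below all DOX libraries. The share of all genes with such a separation was not computed.

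Over the 19 members called in DOX against V at 16 h, the median share of the DOX change present was 56.0% in DOXH replicate 1, 92.2% in replicate 2 and 2.77% in replicate 3. In the H libraries it was 16.9%, -1.75% and 1.56%. Replicate 2 lay in the range of the DOX libraries for 10 of the 19 members and past it for 3. Replicate 3 lay in the range of V for 7, past V on the side away from DOX for 6, between the groups for 6 and in the DOX range for 0. The summed cardiomyocyte markers ranged from 45125 to 67949 CPM in DOXH. Members took 0.408%, 0.442% and 0.351% of all counts in DOXH replicates 1, 2 and 3.

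**Figure D5:**
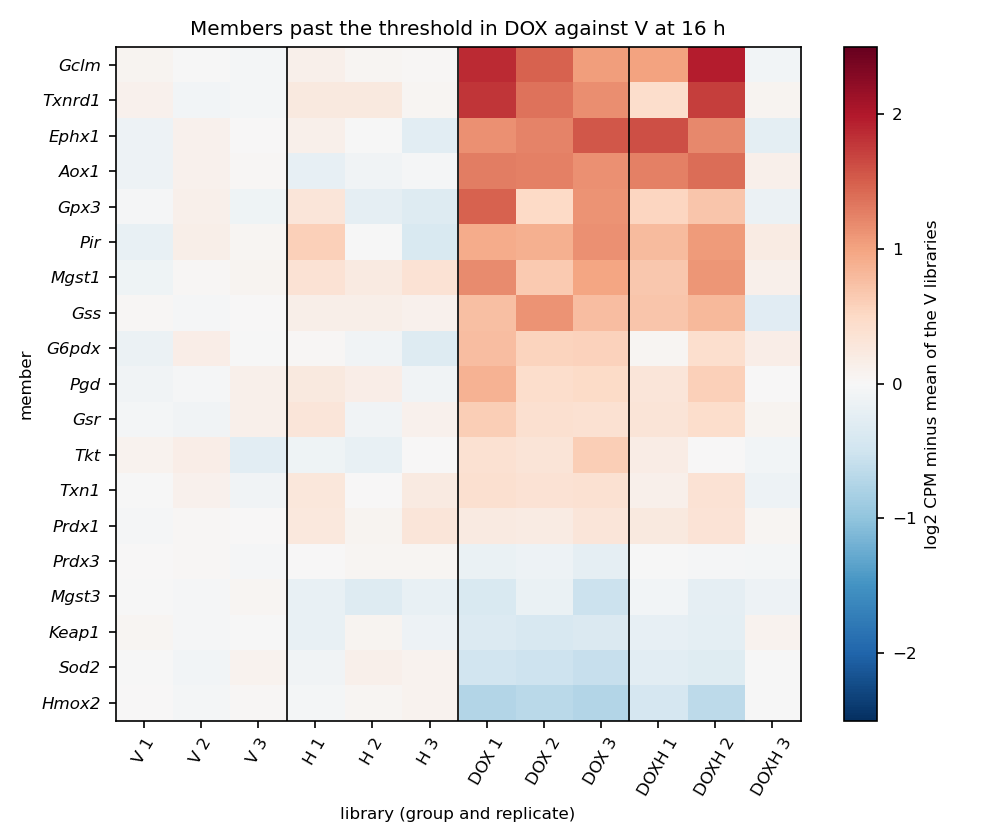
Log2 CPM minus the mean of the V libraries for the 19 members that passed in DOX against V at 16 h (rows) in each of the 12 libraries (columns, group and replicate); red is higher and blue lower than V. DOXH 2 resembles the DOX columns, DOXH 3 the V columns, and DOXH 1 lies between, with median shares of the DOX change of 92.2%, 2.77% and 56.0%. The same order of the DOXH libraries was seen over all genes.

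The DOXH results rest on single libraries. Without DOXH replicate 2, 1554 of 10393 genes passed in DOXH against DOX, and of 46 members 2 were higher and 5 lower. Among these members were Txnrd1 (-1.19, edgeR adjusted p = 0.00560), Gclc (-0.78, 0.0220), Srxn1 (-1.27, 0.0495) and Sod2 (0.39, 0.0225). Without DOXH replicate 3 the comparison with V called 1674 of 10393 genes, and of 46 members 11 were higher and 2 lower. Among these members were Aox1 (1.33, edgeR adjusted p = 2.63e-05), Ephx1 (1.42, 0.000419) and Gclm (1.56, 0.00543). For fits with 1 library left out, shares by direction over all genes are not given here. Their member counts therefore show nothing particular to the members. In the interaction 254 of 10393 genes passed without DOXH replicate 2, with 1 member lower, Txnrd1 (-1.37, edgeR adjusted p = 0.0276). The labels give no difference between these libraries.

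Other genes of the same pathways, 88 in all, moved in both directions. At 16 h 12 of 74 measured rose (16.2%) and 11 fell (14.9%), close to the shares of all genes, with a median of -0.01. The 8 with the smallest p were Rpe, of the pentose phosphate pathway (0.81 ± 0.14), and Sesn2, sestrin 2 (2.89 ± 0.54), both higher, and Msrb3, Msrb2, Slc25a39, Glrx, Txn2 and Hagh, all lower. Msrb2 and Msrb3 reduce oxidised methionine (-0.55 ± 0.12 and -0.52 ± 0.09), Slc25a39 carries glutathione into mitochondria (-0.60 ± 0.13), Glrx is glutaredoxin (-0.88 ± 0.19), Txn2 is mitochondrial thioredoxin (-0.27 ± 0.06) and Hagh is glyoxalase 2 (-0.41 ± 0.10). At 72 h 20 of 57 rose (35.1%) and 17 fell (29.8%), with a median of 0.09. The 8 smallest p belonged to Fth1, the heavy chain of ferritin (1.24 ± 0.10), Mafk (1.09 ± 0.09) and Maff (1.89 ± 0.18), small MAF partners of NRF2, Slc3a2, the heavy chain of the cystine transporter (1.34 ± 0.12), and Ugdh, UDP-glucose dehydrogenase (0.94 ± 0.11), all higher. Gsto1, an omega-class transferase (-0.76 ± 0.08), Msrb2 (-0.91 ± 0.10) and Akr1b3, aldose reductase (-0.74 ± 0.09), fell. Fth1 ranged from 1147 to 1307 CPM in V and from 2806 to 3206 CPM in DOX (edgeR adjusted p = 3.47e-05). Hmox1, the inducible haem oxygenase, was chosen after its values were seen: at 72 h it ranged from 4.72 to 6.96 CPM in V and from 22.7 to 74.5 CPM in DOX (3.06 ± 0.51, adjusted p = 0.00527) and at 16 h from 6.46 to 10.2 CPM in V and from 10.9 to 43.4 CPM in DOX (1.43 ± 0.79, adjusted p = 0.179). In DOXH at 16 h it ranged from 5.91 to 53.3 CPM.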

How the data were processed

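Heart RNA of wild-type mice was selected for poly(A) mRNA and sequenced, per the labels' protocols. The authors deposited expected counts, RSEM's estimates of how many reads each gene produced, in 1 table per time, made on GRCm38 (mm10), per the submitters' processing notes. Not given in the sources used here are the version, the annotation, the strand setting and the rule by which genes entered the tables. Groups come from the labels (24 samples, 8 groups). At 72 h 6 columns match no label and were not used, so H and DOXH at 72 h were not analysed here, and 1 DOX column has a number that no label has.

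Expected counts were rounded, scaled by TMM and filtered with filterByExpr (20 genes removed at 72 h, 0 at 16 h). The 7 comparisons were quasi-likelihood F tests in edgeR 4.0.16 under R 4.3.3 (robust, 1 mean per group). The fits used 12 libraries for 16 h, 6 for 72 h and 18 for the change over time, p-values were adjusted by Benjamini-Hochberg over every gene tested, and the threshold was 0.05. The design planned the same fit for 72 h with all 4 groups, which became a fit of V and DOX. A prior count of 2 was added for log2 CPM. The SE is the absolute log2 fold change divided by the square root of F. Alternatives were RLE and upper quartile factors, scaling without mitochondrial and globin transcripts, DESeq2 1.42.0, voom of limma 3.58.1, no filter, a filter at a mean of 5 CPM, a test against a fold of 1.5, a replicate block, only the groups compared, and each library left out. The tests were checked on simulated counts.

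No 2 libraries of 1 group agreed within sampling noise. At 16 h libraries with 1 replicate number did not deviate together (r from -0.415 to 0.250, 4 of 18 pairs over 0.1). At 72 h both same-number pairs were over 0.1, which is too few pairs to tell whether numbers pair the samples. Gene positions and shared sequence come from GENCODE on GRCm38, and promoter windows from RefSeq. Members, classes, pathway lists and marker lists were chosen with earlier results of these data known. By rule, 21 members and any other with an absolute log2 fold change of at least 1 past the threshold are given in every library, other members where they pass, and up to 8 pathway genes of smallest p per comparison.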

Additional observations from a re-analysis of the deposited data

Results flagged for a closer look

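Of the 43 members tested at both times, 9 had a doxorubicin change at 72 h that differed from that at 16 h in edgeR's test of the difference, and these stand out for that reason. The difference (change at 72 h minus change at 16 h, log2) was 2.11 for Gsta1, 2.07 for Gpx3, 1.42 for Mgst1, 1.04 for Nqo1, 0.88 for Gstm1, 0.60 for Gstm2, 0.58 for Hmox2, 0.52 for Mgst3 and -0.51 for Sod2, with adjusted p of 0.0151, 0.00237, 0.00269, 0.00195, 0.00176, 0.00252, 0.0144, 0.013 and 0.00832 in that order. The first 6 had a larger rise at 72 h. Hmox2 and Mgst3 fell at 16 h (-0.71 and -0.35) and stood at -0.13 and 0.18 at 72 h, where neither passed. Sod2 fell at both times and further at 72 h. The samples of both times carry the same batch label, but each time was deposited as its own table. The Gsta1 difference missed the threshold without V replicate 3 at 16 h (1.73, adjusted p = 0.0603), and its reads are shared with Gm3776.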

How the results depend on the processing

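No called result reversed under the alternatives run (93 uncalled values changed sign), and of 1666 checks of single named members 1615 kept their side of the threshold. Against a fold of 1.5, DOX at 16 h called 0 members higher, 0 lower and 91 genes in all, DOX at 72 h 11, 1 and 826, and the difference between times 1, 0 and 108. With only the groups compared, 19 members rose and 9 fell at 16 h, and DOXH called 1 gene against DOX and 1 against V. The count of all genes in that fit of DOX against V at 16 h is not given here. DESeq2 called 13 genes in H against V, 392 with 1 member higher in DOXH against DOX, 131 with 1 member higher in DOXH against V, and 53 in the interaction. The replicate block gave 14 members higher, 4 lower and 3064 genes at 16 h, 24, 5 and 3820 at 72 h, where 4 libraries leave 1 residual degree of freedom, and 8, 1 and 1206 genes for the difference between times. At 16 h numbers did not pair the samples; at 72 h r was 0.197 and 0.245 for the 2 pairs with the same number and -0.243 to 0.0237 for the other 4, too few to settle it. Leaving out 1 library gave 7 to 12 members higher, 3 to 5 lower and 1928 to 2409 genes for DOX at 16 h, 22 to 24, 4 to 6 and 3397 to 4022 at 72 h, and 7 to 9, 1 and 1495 to 1844 for the difference. It gave 0 to 2, 0 to 5 and 0 to 1554 for DOXH against DOX, 0 to 11, 0 to 2 and 0 to 1674 for DOXH against V, 0 to 47 genes for H against V, and for the interaction 0 to 1 members lower and 0 to 254 genes. Fits that leave 2 libraries in a group have less power by construction; otherwise the cause was not tested. With 3 libraries per group and 9255651 to 20587578 counts, changes of low members such as Pir and Gsta1 were the least precise.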
